A study of Caenorhabditis elegans with 12 samples.

Results

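Lipid droplets are the stores of neutral fat in a cell, and in *C. elegans* most of them lie in the intestine and the hypodermis. The genes described here serve droplet fat storage and release, as droplet proteins (*ldp-1* and *plin-1*), enzymes of triglyceride synthesis and breakdown (*dgat-2*, *acs-22* and *atgl-1*) and lysosomal lipases (*lipl-1* to *lipl-5*). They were chosen by function, with no threshold on a measured value, and are 10 of the 46925 genes in the deposited tables. The list was drawn up with the genotype and age differences of these libraries known, so the tests given below describe these genes and are no independent support for their choice.

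A triglyceride is finished by a diacylglycerol acyltransferase (DGAT-2), which is supplied by an acyl-CoA synthetase (ACS-22), and is opened again at the droplet surface by adipose triglyceride lipase (ATGL-1) while perilipin (PLIN-1) coats the droplet. Lipids that reach the lysosome are cut by acid lipases, the family to which the *lipl* genes belong. In *C. elegans*, the transcription factors HLH-30 and MXL-3 are known to act in opposite directions on fasting-responsive *lipl* genes.

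mRNA of whole animals was sequenced in 12 libraries, 3 in each of 4 groups: wild type and *sams-1* at adult day 1 (D1) and at day 7 (D7). SAMS-1 makes the methyl donor S-adenosylmethionine, and the comparisons ask how mRNA levels differ when it is reduced and how this changes with age. In the sample labels, the animals of every group grew on HT115 bacteria, and the *sams-1* groups have the treatment RNAi and the wild-type groups the treatment control. The study's text writes *sams-1(lof)* for the animals of its RNA sequencing. The replicates are numbered 1, 3 and 5, and the study describes them as independent biological replicates.

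The libraries held between 3939015 and 7568375 counts. *sams-1* mRNA went against the label. It stood at 163, 102 and 181 CPM (counts scaled to a fixed library size with TMM factors over the 12 libraries) in wild type at D1 and at 228, 230.3 and 245 in the libraries labelled *sams-1*. At D7 the values were 13.2, 20 and 17.6 against 35.6, 72.2 and 51.3. The log2 difference was 0.46 ± 0.26 (SE) at D1, which did not pass the test (edgeR quasi-likelihood, adjusted p = 0.146), and 1.72 ± 0.27 at D7 (edgeR, adjusted p = 0.000318), and it was negative at both ages, −1.69 and −0.26, when libraries were scaled to intestine markers. The group names below are therefore those of the labels. The *sams-1* D1 replicate 1 library stood apart from its group mates, with a chi-square per degree of freedom of 99.9 and 135 against them and 21.2 between them, wild type D1 replicate 1 had 38 and 41.7 against 20.5, and *sams-1* D7 replicate 3 had 21.7 and 27 against 8.9.

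The mRNA of marker genes of several tissues differed with genotype. Among all genes tested, 17.4% passed as higher and 16.8% as lower at D1, and 35.6% and 29.4% at D7 (edgeR, adjusted p under 0.01). Of 20 intestine markers, 18 were higher in *sams-1* at D1 and 16 at D7, with none lower. Their summed level was 948 to 1402 CPM in wild type and 3863 to 7748 in *sams-1* at D1, and 1263 to 1675 against 4169 to 8111 at D7. Of 28 germ line markers, 20 at D1 and 27 at D7 were lower, and their sum went from between 10150.0 and 15300.0 CPM to between 1908 and 4473 at D1, and from between 14350.0 and 15420.0 to between 3892 and 4983 at D7. Oocyte markers were lower as well, 9 and 16 of 18, with sums of 13450.0 to 22680.0 against 1000.0 to 6460.0 CPM at D1 and of 20890.0 to 21930.0 against 8465 to 10870.0 at D7. Body wall muscle markers were higher in 10 and 21 of 26 and lower in 0 and 1, with sums of 4214 to 7649 against 15440.0 to 20540.0 CPM at D1 and 1971 to 2709 against 4510.0 to 6345 at D7. Hypodermis markers were higher in 10 and 9 of 15 and lower in 1 and 2, with sums of 1027 to 1814 against 4138 to 8944 CPM at D1 and 476.5 to 530.0 against 591.5 to 1059 at D7. Sperm markers were higher in 0 of 15 at D1 and 10 of 11 at D7 and lower in 0, with sums of 45.8 to 856 against 760 to 854 CPM and 5.73 to 12.7 against 38.6 to 91.2. Some intestine, hypodermis, sperm and muscle markers reached the level of the low-count filter in all 3 libraries of *sams-1* only, and the counts that include them are a description. No listed marker was at 0 in every library. In RNA from whole animals, fewer cells of a type, less RNA per cell and a change in the expression of the markers themselves cannot be told apart. The part of tissue makeup in the differences below was not tested beyond the scaling to marker genes given with them.

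The choice of scaling sets the zero of every difference. With TMM, genes had a median log2 difference of 0.58 at D1 and 0.13 at D7. The median became −1.58 and −1.91 with intestine markers held equal, −0.78 and −1.24 with muscle markers, 0.76 and 0.40 with library totals, 0.34 and 0.09 with DESeq2 size factors, and 1.16 and 0.58 with upper-quartile factors. The share of called genes that were higher moved with it, from 51% with TMM at D1 to 2.67% with intestine markers, 10.2% with muscle markers, 65.5% with library totals and 78.9% with upper-quartile factors, and at D7 from 54.8% to 6.07%, 17.4%, 65.7% and 72.8%. A factor that shifts all genes alike leaves the distance of a gene from that median as it was, by construction. At D1 this distance still ran from 0.34 to 0.61 for *lipl-2* and from 0.82 to 1.01 for *acs-22*. *dgat-2* was 1.63 to 1.72 above the median at D1 and 1.60 to 1.62 above it at D7 over the 6 scalings, and *atgl-1* was 1.48 to 1.60 below it at D1 and 0.96 to 0.97 below it at D7.

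**Figure D1:**
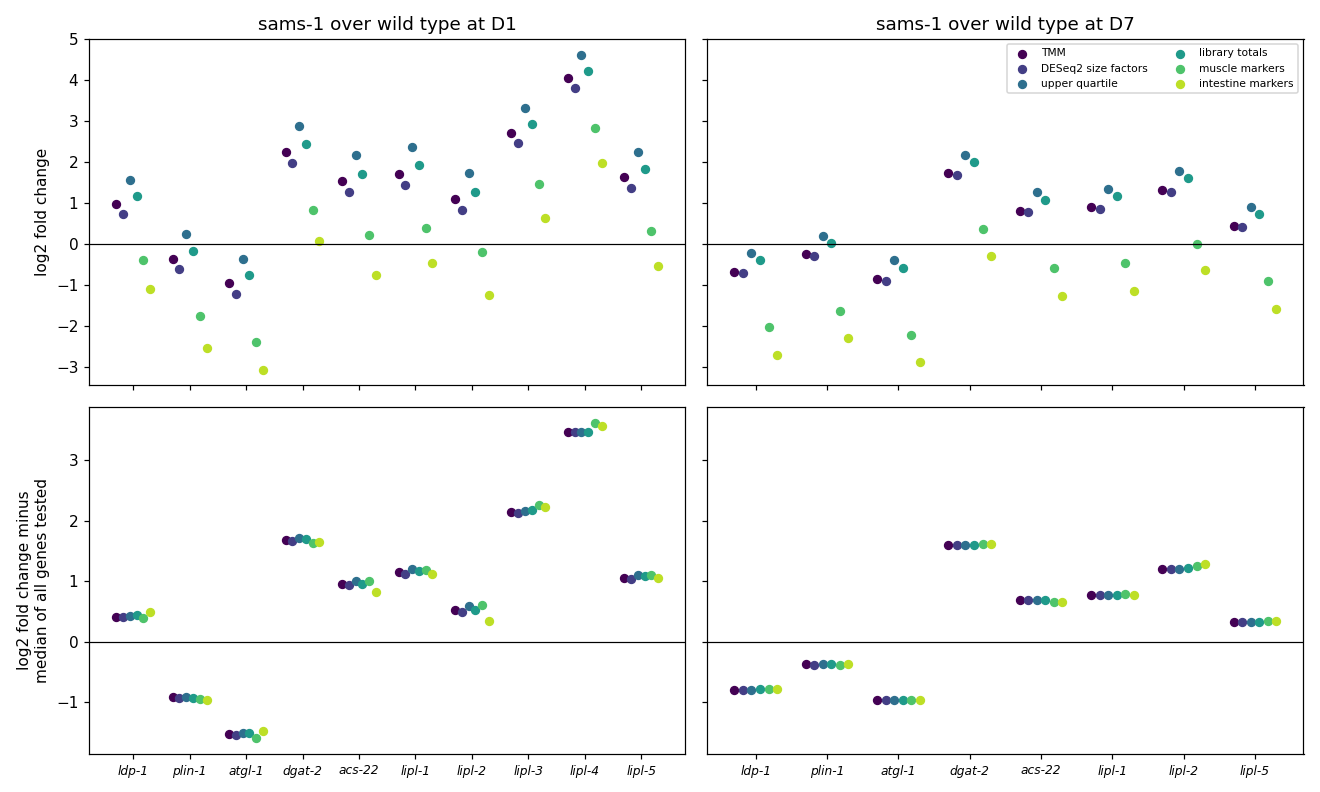
Log2 difference of *sams-1* over wild type for each gene tested at D1 (left) and D7 (right) under 6 scalings, above as fitted and below after subtraction of the median of all genes tested under the same scaling. Fitted values cross 0 between scalings for 6 of 10 genes at D1 and 6 of 8 at D7, while *dgat-2* stays between 1.60 and 1.72 above the median and *atgl-1* between 0.96 and 1.60 below it at both ages.

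Both ages could be tested for 8 of the 10 genes. *lipl-3* and *lipl-4*, which passed the filter on low counts at D1 through the *sams-1* libraries alone and did not pass it at D7, are described apart. At D1, 2 of the 8 passed the test as higher in *sams-1* (edgeR, adjusted p under 0.01), *dgat-2* and *lipl-5*, and 0 passed as lower, where 17.4% of all 12956 genes tested passed as higher and 16.8% as lower. At an unadjusted p under 0.05 there were 5 higher and 1 lower of the 8, where 37.8% and 31.8% of all genes were. DESeq2 called 2 higher and 1 lower, where it called 22% and 28.4% of all genes. The libraries of both genotypes did not overlap for 5 of the 8 that were higher and 1 that was lower, against 45.1% and 28.3% of all genes. At D7, *dgat-2*, *acs-22*, *lipl-1* and *lipl-2* passed as higher and *atgl-1* and *ldp-1* as lower, where 35.6% and 29.4% of 12242 genes passed. The libraries did not overlap for 4 genes that were higher and 3 that were lower, against 41.4% and 33.8% of all genes.

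**Figure D2:**
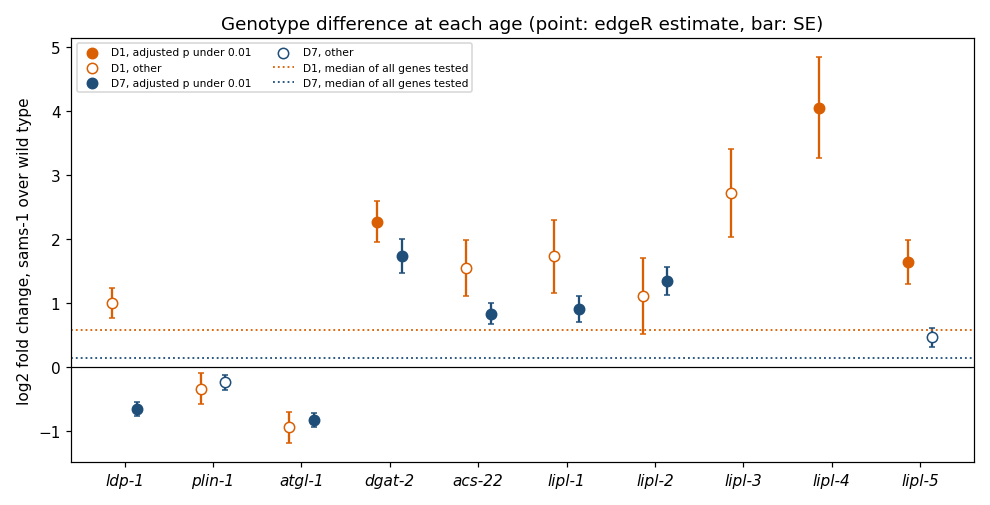
Log2 difference of *sams-1* over wild type (edgeR estimate with TMM scaling, bars are SE, n = 3 libraries per group) at D1 and D7, with filled points at adjusted p under 0.01. *ldp-1* is at 0.99 at D1 and −0.66 at D7, while *dgat-2* is at 2.26 and 1.73 and *atgl-1* at −0.95 and −0.84, and dotted lines give the median of all genes tested.

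*dgat-2* (V, 17660303 to 17661810, plus strand, build WBcel235), the acyltransferase of the last step of triglyceride synthesis, had the largest difference among the 5 storage genes at both ages. Its level at D1 was 10.9, 14.2 and 9.17 CPM in wild type replicates 1, 3 and 5 and 49.8, 83.2 and 55.7 CPM in *sams-1*. At D7 it was 18.9, 9.67 and 11.3 CPM in wild type and 34.7, 46.1 and 45.0 in *sams-1*. The genotypes were apart at both ages, with the lowest *sams-1* library above the highest wild-type library. The log2 difference was 2.26 ± 0.32 (SE) at D1 (edgeR, adjusted p = 0.00292) and 1.73 ± 0.26 at D7 (edgeR, adjusted p = 0.000247). With muscle markers held equal it came to 0.85 and 0.38 and did not pass (adjusted p = 0.206 and 0.317), and with intestine markers held equal it came to 0.08 at D1 and −0.29 at D7. *dgat-2* overlaps F59A1.11 on the other strand, which had 18 counts in all 12 libraries, and 2 pseudogenes with 0.

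*acs-22* (X, 8931179 to 8939263, plus strand), the acyl-CoA synthetase that works with DGAT-2, had higher levels in *sams-1* as well. Its level at D1 was 21.7, 15.9 and 13.6 CPM in wild type and 25.1, 71.6 and 72.6 in *sams-1*, where the low value belonged to replicate 1, the library that stood apart. D7 libraries had 49.6, 38.7 and 37.6 CPM in wild type and 75.6, 60.8 and 74.3 in *sams-1*. The groups did not overlap at either age. The difference on the log2 scale was 1.54 ± 0.43 (SE) at D1, short of the threshold (edgeR, adjusted p = 0.0186), and 1.75 without *sams-1* D1 replicate 1 (edgeR, adjusted p = 0.00107). The D7 difference was 0.82 ± 0.16 (edgeR, adjusted p = 0.00129). That call was lost without wild type D7 replicate 3 or replicate 5 (adjusted p = 0.0121 and 0.0129), and the sign turned with intestine scaling (−0.76 at D1 and −1.25 at D7) and, at D7, with muscle scaling (−0.58).

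*atgl-1* (III, 6415772 to 6419459, minus strand), the lipase that opens the triglyceride, went the other way. Its level at D1 was 143, 127 and 85.7 CPM in wild type and 71.1, 58.2 and 79.1 in *sams-1*, so that the groups were apart by the gap between wild type replicate 5 and *sams-1* replicate 5. At D7 it was 156, 149.8 and 171 CPM in wild type and 87.1, 81.7 and 83.2 in *sams-1*, with a wide gap. The log2 difference was −0.95 ± 0.24 (SE) at D1 (edgeR, adjusted p = 0.0133, not past the threshold) and −0.84 ± 0.11 at D7 (edgeR, adjusted p = 0.000105). Without *sams-1* D1 replicate 1 the D1 value was −1.12 (edgeR, adjusted p = 0.00606). *atgl-1* was lower in *sams-1* under all 6 scalings at both ages, and its D7 call held in all 6 fits that left out a library, with adjusted p between 2.16e-05 and 0.00103. It was lost with upper-quartile factors (−0.39, adjusted p = 0.0105).

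The level of *dgat-2* relative to *atgl-1* can be read within a library, where scaling cancels. A ratio alone does not tell opposite courses from a larger fall of *atgl-1*. With intestine markers held equal, *dgat-2* was at 0.08 and −0.29 at D1 and D7, and *atgl-1* at −3.05 and −2.88. The ratio of their TPM (transcript abundance corrected for length) was 0.187, 0.275 and 0.263 in wild type at D1 and 1.72, 3.51 and 1.73 in *sams-1*. The D7 ratios were 0.299, 0.159 and 0.163 against 0.978, 1.38 and 1.33. The group means were 0.241 ± 0.047 and 2.32 ± 1.03 (SD, n = 3) at D1 and 0.207 ± 0.080 and 1.23 ± 0.22 at D7, with no overlap between genotypes. The log2 CPM of both genes had a correlation of −0.81 over the 12 libraries, and −0.02 once the group means were taken out. The ratios were formed after the fits had been seen and are a description.

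**Figure D3:**
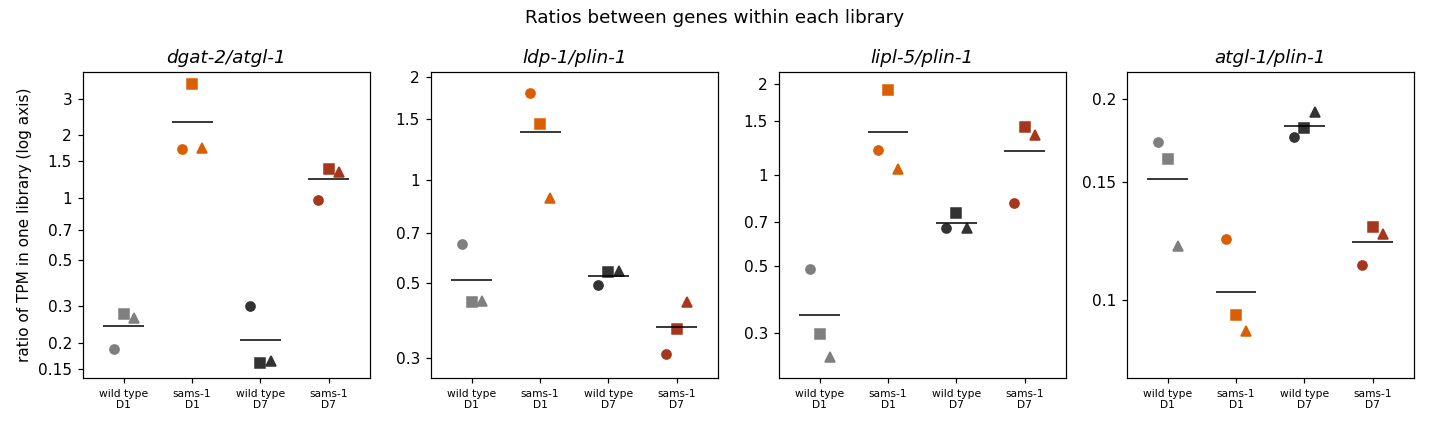
Ratio of the TPM of 2 genes in each library (log axis), for *dgat-2* to *atgl-1*, *ldp-1* to *plin-1*, *lipl-5* to *plin-1* and *atgl-1* to *plin-1*. Points are replicates 1 (circle), 3 (square) and 5 (triangle), bars are group means, and the *dgat-2* to *atgl-1* ratio lies between 0.159 and 0.299 in wild type and between 0.978 and 3.51 in *sams-1*.

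*ldp-1* (V, 2127535 to 2130100, plus strand), a protein found on lipid droplets, differed between genotypes in opposite directions at both ages. At D1 its level was 225, 160.0 and 153 CPM in wild type and 447.5, 424.5 and 338.5 in *sams-1*, so the lowest *sams-1* library was above the highest wild-type library. At D7 it was 194, 202 and 206 CPM in wild type and 111, 126 and 123 in *sams-1*, and here all 3 *sams-1* libraries were below wild type. The log2 difference was 0.99 ± 0.23 (SE) at D1 (edgeR, adjusted p = 0.0101, just outside the threshold) and −0.66 ± 0.11 at D7 (edgeR, adjusted p = 0.000351).

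From D1 to D7, *ldp-1* fell in *sams-1*. The mean went from 404 ± 57 to 120.2 ± 7.7 CPM (SD, n = 3), a log2 difference of −1.75 ± 0.19 (SE; edgeR, adjusted p = 0.00039), while in wild type it stood at 179 ± 40 and 201 ± 5.6 CPM and the libraries of both ages overlapped. The interaction of genotype and age was fitted on all 12 libraries, with scaling factors other than those of the fits at each age. It is therefore not the distance between the D1 and D7 values above. The interaction was −1.91 ± 0.27 on the log2 scale (edgeR, adjusted p = 0.013), short of the threshold, where 0.0141% of 14193 genes passed as lower. Without *sams-1* D1 replicate 1, which had the highest *ldp-1* level, it was −1.4 and passed (edgeR, adjusted p = 0.000952), and it passed without wild type D1 replicate 1 as well (−2.11, edgeR, adjusted p = 0.004). Scaling matters for each arm. The D1 value turned to −1.08 with intestine and −0.38 with muscle markers. The D7 call was lost with upper-quartile factors (−0.21, edgeR, adjusted p = 0.0875), and the decline in *sams-1* was −0.08 with muscle markers (edgeR, adjusted p = 0.80). In wild type the difference with age ran from −0.15 to 1.56 among the alternatives, with a lowest adjusted p of 0.000358.

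*plin-1* (I, 7057192 to 7059351, plus strand), the perilipin, was the most abundant of the 10 genes by TPM in wild type, at 289 ± 5.9 at D1 and 320.0 ± 12 at D7 (SD, n = 3). In CPM it was 513, 487 and 446 in wild type at D1 and 361, 384 and 553 in *sams-1*, with overlap through *sams-1* replicate 5. Libraries of D7 had 552, 513 and 556 CPM against 483, 397.5 and 414, with no overlap. The log2 difference did not pass at D1 (−0.35 ± 0.24, edgeR, adjusted p = 0.232) or at D7 (−0.25 ± 0.12, edgeR, adjusted p = 0.0801), and its sign turned with upper-quartile factors (0.26 and 0.21) and, at D7, with library totals (0.03). Relative to the median of all genes it was 0.91 to 0.96 lower at D1 and 0.37 to 0.39 lower at D7 under the 6 scalings. Within libraries, the *ldp-1* to *plin-1* ratio of TPM was 0.509 ± 0.120 and 1.38 ± 0.46 at D1 in wild type and *sams-1* and 0.523 ± 0.026 and 0.371 ± 0.065 at D7 (SD, n = 3), with no overlap between genotypes at either age.

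**Figure D4:**
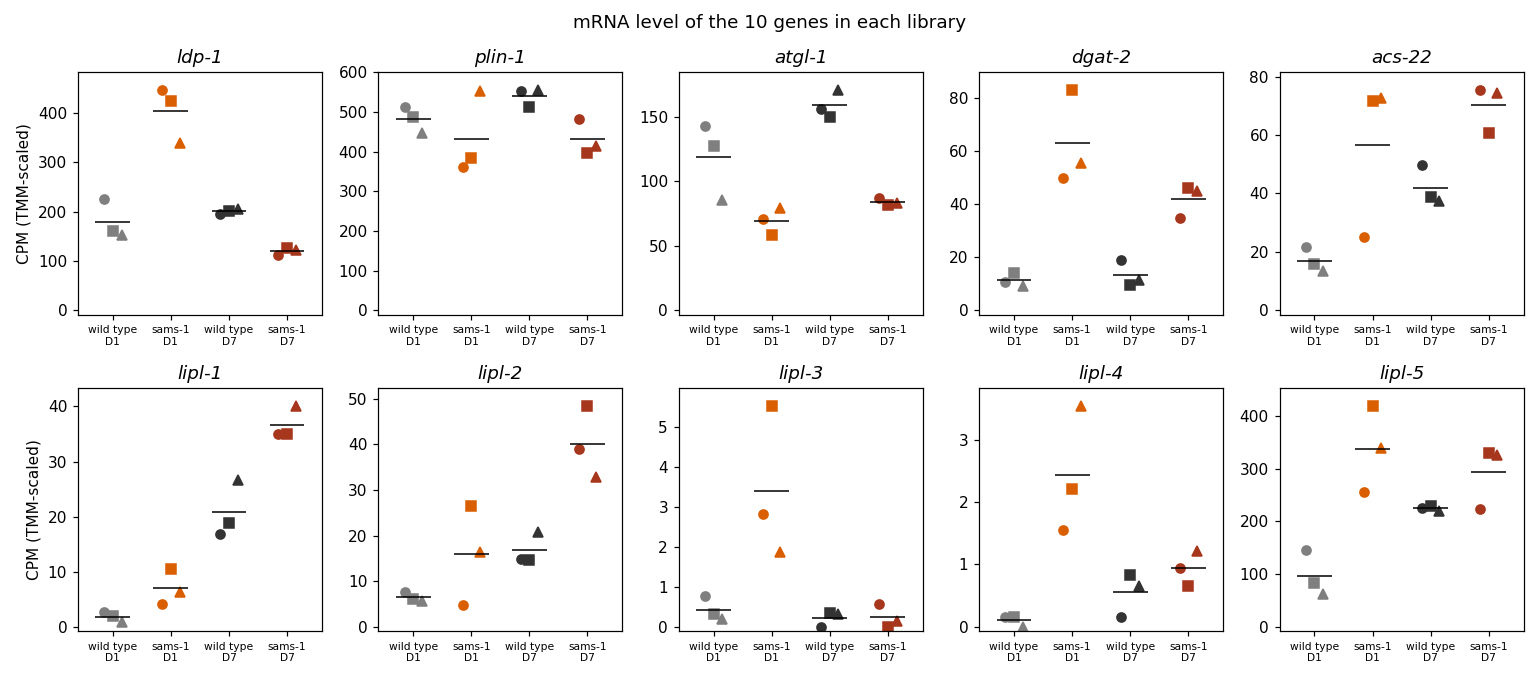
CPM with TMM scaling of each gene in the 12 libraries, as replicates 1 (circle), 3 (square) and 5 (triangle) with the group mean as a bar, each panel from 0 on its own linear axis. *ldp-1* is highest in *sams-1* at D1 (338.5 to 447.5 CPM) and lowest in *sams-1* at D7 (111 to 126 CPM), and *lipl-1* is at 16.9 CPM or more in every D7 library and at 10.5 or less in every D1 library.

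*lipl-5* (V, 385746 to 387740, plus strand), a lysosomal lipase of the intestine, made up nearly all of the mRNA of the 5 *lipl* genes. Its share of their summed TPM was 93.1 ± 0.98% in wild type at D1, 93.9 ± 1.9% in *sams-1* at D1, 88.0 ± 2.5% in wild type at D7 and 82.4 ± 2.9% in *sams-1* at D7 (SD, n = 3). In CPM it was 145, 82.9 and 61.4 in wild type and 255, 419.9 and 339 in *sams-1* at D1, with the genotypes apart. In D7 animals it was 226, 229.9 and 220.1 against 223, 330.3 and 326.5, and *sams-1* replicate 1 lay among the wild-type libraries. *lipl-5* differed by 1.63 ± 0.34 (SE) at D1 (log2; edgeR, adjusted p = 0.00675) and 0.46 ± 0.15 at D7 (edgeR, adjusted p = 0.0191). With intestine markers held equal the values were −0.52 and −1.57, and with muscle markers they were 0.32 and −0.89. The D1 call was lost with muscle markers (edgeR, adjusted p = 0.591). It was lost with DESeq2 size factors as well (1.38, edgeR, adjusted p = 0.0106). The gene whose level followed *lipl-5* most closely over the 12 libraries, *ges-1* (r = 0.971), is itself on the intestine list.

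**Figure D5:**
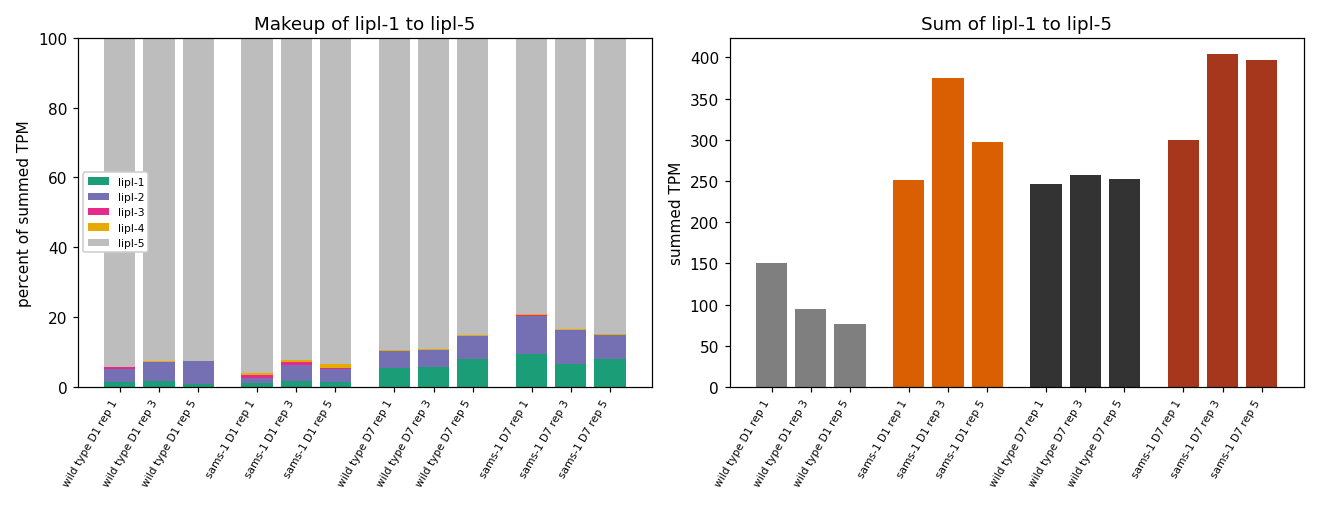
Left, share of each of *lipl-1* to *lipl-5* in their summed TPM in each library (bars add to 100%). Right, the summed TPM, which has group means of 107 in wild type and 308 in *sams-1* at D1 and 252 and 367 at D7, with *lipl-5* the largest share in every library.

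*lipl-1* (V, 12919986 to 12921692, plus strand), a lysosomal lipase induced by fasting, had the largest difference with age in wild type among the 10 genes. At D1 it was at 2.71, 1.94 and 0.797 CPM in wild type and 4.09, 10.5 and 6.24 in *sams-1*. At D7 it was at 16.9, 18.8 and 26.6 CPM in wild type and 35.0, 34.9 and 40.1 in *sams-1*. At D1, 2 of the wild-type and all 3 of the *sams-1* libraries were above the level that the filter on low counts asks of 3 libraries. The 4 groups did not overlap anywhere, in the order wild type D1, *sams-1* D1, wild type D7, *sams-1* D7.

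From D1 to D7, *lipl-1* was higher by 3.47 ± 0.44 (log2, SE; edgeR, adjusted p = 0.000515) in wild type and by 2.41 ± 0.41 in *sams-1* (edgeR, adjusted p = 0.00277). It was the only one of the 10 genes that passed with age in wild type, where 2.94% of 14193 genes passed as higher, and at an unadjusted p under 0.05 there were 5 higher, where 15.5% of all genes were. Among the alternatives the wild-type value had adjusted p between 2.04e-12 and 0.00339. The *sams-1* value was lost without *sams-1* D7 replicate 3 (2.42, adjusted p = 0.0102). Between genotypes the log2 difference was 1.72 ± 0.57 at D1 (edgeR, adjusted p = 0.0319) and 0.90 ± 0.21 at D7 (edgeR, adjusted p = 0.00279), and the D7 call was lost without any of wild type D7 replicate 1 or 3 or *sams-1* D7 replicate 5 (adjusted p = 0.0229, 0.0202 and 0.0165). The sign between genotypes turned with intestine markers (−0.46 and −1.14) and, at D7, with muscle markers (−0.45).

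*lipl-2* (V, 9791567 to 9793241, plus strand), a second lysosomal lipase of the family, was clearest at D7. There it was at 14.8, 14.7 and 20.8 CPM in wild type and 39.0, 48.5 and 32.8 in *sams-1*, with no overlap. At D1 it was at 7.54, 6.16 and 5.58 CPM against 4.80, 26.5 and 16.4, and *sams-1* replicate 1 was below wild type. On the log2 scale the difference was 1.33 ± 0.22 (SE) at D7 (edgeR, adjusted p = 0.000432) and 1.10 ± 0.59 at D1 (edgeR, adjusted p = 0.131). Without *sams-1* D1 replicate 1 the D1 value was 1.4 (edgeR, adjusted p = 0.0142). The values with intestine markers held equal were −0.62 at D7 and −1.23 at D1, and with muscle markers 0.02 and −0.17. With age it was higher by 1.38 in wild type (edgeR, adjusted p = 0.0673) and by 1.34 in *sams-1* (edgeR, adjusted p = 0.0446), and both passed without *sams-1* D1 replicate 1 (1.22 and 1.17, edgeR, adjusted p = 0.00777 and 0.00501).

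*lipl-3* (V, 521595 to 524218, minus strand) and *lipl-4* (V, 6550171 to 6552186, plus strand) were near the detection limit. *lipl-3*, another fasting-induced lipase, had 5, 2 and 1 counts in wild type at D1 and 20, 30 and 11 in *sams-1*, and at D7 at most 3 in any library. Its D1 log2 difference was 2.71 ± 0.68 (edgeR, adjusted p = 0.0124), and the ratio of pooled counts per scaled depth was 7.37 (95% interval 3.51 to 17.8, counting error only). From D1 to D7 in *sams-1* it went from 61 to 4 counts in all, a log2 difference of −3.69 (edgeR, adjusted p = 0.0122) that did not pass.

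*lipl-4*, a lipase known from *C. elegans* lifespan work in which it acts with the lipid chaperone LBP-8, had 1, 1 and 0 counts in wild type at D1 and 11, 12 and 21 in *sams-1*. The pooled ratio was 21.3 (95% interval 5.55 to 181, counting error only), and the fitted difference passed the test (edgeR, adjusted p = 0.00564). At D7 it had 1, 5 and 4 counts against 5, 3 and 8, and the libraries overlapped. Both genes passed the filter on low counts at D1 through the *sams-1* libraries in which they were high and did not pass it at D7, so their D1 values are a description of few molecules.

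Leaving out each of the 6 D1 libraries in turn, *lipl-4* and *lipl-5* kept their call only without *sams-1* replicate 1, and *dgat-2* only without that library or wild type replicate 5. The log2 differences ran from 2.02 to 2.40 for *dgat-2*, from 3.58 to 4.33 for *lipl-4* and from 1.35 to 1.93 for *lipl-5*, with adjusted p up to 0.0204, 0.0299 and 0.0403. Over all genes, these fits called between 0 and 6399 genes at D1, with 0 in 2 of them (without wild type D1 replicate 3 and without *sams-1* D1 replicate 3), and between 6742 and 9211 at D7, so a call lost in a D1 fit that made few calls or none says nothing of how far the gene depends on that library. Without *sams-1* D1 replicate 1, 4 of the 10 genes passed as higher at D1 and 1 as lower, where 19.7% and 26.9% of all genes did. Of the 4, *lipl-4* passed the filter on low counts through the *sams-1* libraries alone. Its calls in these fits, and the count that holds it, are a description.

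With age, *ldp-1* passed as lower in *sams-1*, where 6.34% of all genes did, and *lipl-1* as higher, where 3.29% did, and 0 of the 10 passed as lower in wild type, also with DESeq2, which called 8.75% of all genes lower, and at an unadjusted p under 0.05, where 14.5% were. The libraries of both ages did not overlap for 6 genes that were higher at D7 in wild type (25.7% of all genes) and for 3 that were higher and 4 that were lower in *sams-1* (18.6% and 22.8%), among them *lipl-3* and *lipl-4* as lower. *lipl-5* was higher at D7 in wild type by 1.22 ± 0.30 (edgeR, adjusted p = 0.0171) and *acs-22* by 1.3 ± 0.35 (edgeR, adjusted p = 0.0271), both short of the threshold. *acs-22* passed without *sams-1* D1 replicate 1 (1.14, edgeR, adjusted p = 0.00196), and *lipl-5* without wild type D1 replicate 1 (1.64, edgeR, adjusted p = 0.00172). No gene of the 10 passed the interaction test at adjusted p under 0.01, where 3 were negative at an unadjusted p under 0.05, as were 12.1% of all genes, and DESeq2 called 1, as it did 1.48% of all genes. After *ldp-1* the next were *lipl-5* (−1.43 ± 0.42, edgeR, adjusted p = 0.0981) and *lipl-4* (−3.44 ± 1.11, edgeR, adjusted p = 0.125). The age contrasts and the genotype contrasts share libraries, so their values are given side by side without a comparison.

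Of 51 other genes of droplets, lipases, triglyceride synthesis and lipid regulation, 49 were in the tables. Of these, 9 were higher and 4 lower of 45 tested at D1, and 19 higher and 9 lower of 46 at D7, where 17.4% and 16.8% of all genes passed at D1 and 35.6% and 29.4% at D7. The median log2 difference was 0.46 at D1 and 0.21 at D7, beside 0.58 and 0.13 for all genes. The 21 regulators and lipid carriers had 7 higher and 1 lower at D1 and 14 higher and 2 lower at D7. The 14 other enzymes of triglyceride synthesis had 0 higher and 2 lower at D1 and 1 higher and 5 lower at D7. The difference between these lists was not tested. Some of the 49 genes, *lbp-8* among them, reached the level of the low-count filter in all 3 libraries of *sams-1* only. The counts that include them are a description.

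*dhs-3*, a dehydrogenase that marks intestinal droplets, was at 47.9, 22.5 and 19.5 CPM in wild type and 73.1, 146 and 102 in *sams-1* at D1, and at 58.9, 49.8 and 47.7 against 121, 151.5 and 108 at D7, with no overlap at either age. Its log2 difference was 1.66 ± 0.40 at D1 (edgeR, adjusted p = 0.0107) and 1.36 ± 0.16 at D7 (edgeR, adjusted p = 5.26e-05), and −0.51 and −0.63 with intestine scaling. *lid-1*, the partner of ATGL-1, had lower levels beside *atgl-1*, at 136, 149 and 114 CPM against 77.1, 42.2 and 27.7 at D1, and at 158, 144 and 154 against 68.9, 81.3 and 76.9 at D7. The differences were −1.62 ± 0.38 (edgeR, adjusted p = 0.0101) and −0.93 ± 0.12 (edgeR, adjusted p = 7.37e-05).

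*seip-1*, the seipin of droplet biogenesis, was lower at D1 (−1.10 ± 0.25, edgeR, adjusted p = 0.00869), a call lost with library totals and upper-quartile factors (adjusted p = 0.0219 and 0.0922) and without any of the 3 wild-type libraries or *sams-1* D1 replicate 3 or 5 (adjusted p from 0.0187 to 0.0389). At D7 it differed by −0.20 ± 0.23 (edgeR, adjusted p = 0.457), and its sign turned with library totals (0.08) and upper-quartile factors (0.25). With a library left out the D7 value ran from −0.52 to −0.01. Among these fits it passed only without *sams-1* D7 replicate 3 (−0.52, edgeR, adjusted p = 0.00571). *hosl-1*, the hormone-sensitive lipase, did not pass at D1 (0.53 ± 0.32, edgeR, adjusted p = 0.178) or at D7 (−0.32 ± 0.21, edgeR, adjusted p = 0.179), and it turned to −1.66 with intestine and −0.84 with muscle markers at D1 and to 0.13 with upper-quartile factors at D7.

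Of the other *lipl* genes, *lipl-7* was at 9.34, 2.92 and 5.18 CPM in wild type and 33, 7.00 and 8.44 in *sams-1* at D1, with overlap, and at 15.6, 10.3 and 14.9 against 21.0, 21.8 and 25.2 at D7, without. It passed at D7 (0.81 ± 0.22, edgeR, adjusted p = 0.00703) and not at D1 (1.31 ± 0.72, edgeR, adjusted p = 0.141), and the D1 value was 0.08 without *sams-1* D1 replicate 1. The D7 call was kept only without *sams-1* D7 replicate 3 when a library was left out (adjusted p from 0.0135 to 0.0404 otherwise). The sign turned with intestine (−0.48 and −1.23) and muscle markers (−0.08 and −0.55). *lipl-6* had 4 counts in wild type and 125 in *sams-1* at D1 and 6 and 31 at D7, and *lipl-8* had 1 count in all libraries together. Both were under the filter.

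The regulators tied to *lipl* genes, *mxl-3* and *hlh-30*, had higher levels in every *sams-1* library than in any wild-type library of the same age. Of all 14193 genes, 45.1% at D1 and 41.4% at D7 were apart in this way. *mxl-3* was at 15.2, 21.5 and 17.7 CPM in wild type and 104, 124 and 247 in *sams-1* at D1, and at 15.9, 11.0 and 15.4 against 57.8, 55.6 and 70.3 at D7. Its differences of 2.93 ± 0.39 (edgeR, adjusted p = 0.00272) and 2.20 ± 0.20 (edgeR, adjusted p = 1.32e-05) did not pass with intestine scaling (0.65 and 0.14, edgeR, adjusted p = 0.261 and 0.771) or with muscle scaling (1.51 and 0.83, edgeR, adjusted p = 0.0187 and 0.0173). *hlh-30* was at 56.8, 35.5 and 36.9 CPM against 80.6, 104 and 161 at D1 and at 57.6, 65.2 and 69.9 against 128, 88.0 and 132 at D7. It differed by 1.24 ± 0.32 (edgeR, adjusted p = 0.0131) and 0.94 ± 0.17 (edgeR, adjusted p = 0.000751), and by −0.98 and −1.16 with intestine and −0.08 and −0.47 with muscle markers.

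*lbp-8*, the lipid chaperone that acts with LIPL-4, had 4, 7 and 3 counts in wild type and 36, 114 and 50 in *sams-1* at D1, and 3, 6 and 4 against 51, 67 and 31 at D7. At both ages it passed the filter on low counts through the *sams-1* libraries alone, so the fitted values are a description. Its differences were 3.64 ± 0.69 (edgeR, adjusted p = 0.00516) and 3.79 ± 0.54 (edgeR, adjusted p = 0.00016). They kept their sign with intestine scaling, at 1.38 (adjusted p = 0.103) and 1.90. At D1, the call of *lbp-8* was kept only without *sams-1* replicate 1, and that of *mxl-3* only without that library or wild type replicate 5 (adjusted p otherwise from 0.0147 to 0.0244 and from 0.011 to 0.0204).

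Correlations among the 10 genes had both signs. Of their 45 pairs, 11 had a correlation of log2 CPM above 0.70 over the 12 libraries, led by *lipl-1* with *lipl-2* (0.886), *acs-22* with *lipl-5* (0.883) and *acs-22* with *lipl-2* (0.877), and 1 was below −0.70, *atgl-1* with *dgat-2*. With group means taken out these 3 correlations were 0.707, 0.599 and 0.798. *plin-1* and *atgl-1* went together (0.769, and 0.574 with group means taken out). Libraries of a group share their condition, so these values have no p. The share of all gene pairs above 0.70 was not computed, and *lipl-3* and *lipl-4* had few counts. The count of pairs is therefore a description.

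Among genes with a mean of at least 10 CPM, the gene most like each of the 10 over the 12 libraries (Pearson's r of log2 CPM) was *nduf-9* for *ldp-1* (0.971), *gck-1* for *plin-1* (0.923), *cogc-3* for *atgl-1* (0.983), *decr-1.1* for *dgat-2* (0.979) and *atg-2* for *acs-22* (0.983). For the lipases it was *mtl-1* for *lipl-1* (0.989), H39E23.3 for *lipl-2* (0.954), *ergi-2* for *lipl-3* (0.938), Y39G8B.1 for *lipl-4* (0.943) and *ges-1* for *lipl-5* (0.971). Each was picked as the highest r over these genes in the same libraries, so a high r was assured. After subtraction of group means the highest of the 10 were *lipl-1* with *mtl-1* (0.975) and *acs-22* with *atg-2* (0.945). The lowest was *lipl-4* with Y39G8B.1 (0.624). The values are a description, and those of *lipl-3* and *lipl-4* rest on few counts.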

How the data were processed

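Gene tables of 12 libraries were used. Per the labels and the submitters' processing notes, reads were trimmed with Trimmomatic 0.39, aligned with STAR and quantified with RSEM 1.3.3, and the study's methods name the WS245 annotation. The authors deposited RSEM expected counts, TPM and FPKM for each gene, where TPM and FPKM are scaled by the authors for gene length and for depth. The labels name BGI as maker of the libraries and the study's methods name another provider for the replicate set, so the provider is unsure.

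After rounding to whole numbers, the counts were tested with edgeR 4.0.16 (R 4.3.3), with TMM factors, the filterByExpr filter on low counts, quasi-likelihood F tests and Benjamini-Hochberg adjustment over all genes tested. A gene passed at an adjusted p under 0.01. SE was taken from the fold change and its F value. Genotypes were compared at each age on 6 libraries, and ages and the interaction on 12. The procedure was tested on simulated counts, where it recovered the direction of most of the changes put in. Only a small part of the genes was changed there, up or down at random. The simulation therefore does not cover a shift of many genes, and it is no check of the scaling in these data. CPM were computed with TMM factors of the 12 libraries and compare a gene between libraries, and the deposited TPM compare genes. Intervals for pooled counts cover counting error only.

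The 10 genes, the other pathway genes and the marker lists were chosen with earlier results of these data known. Named besides the 10 were *sams-1*, 10 pathway genes chosen by function, and for each of the 10 the gene most like it. Coordinates are from the Ensembl annotation of WBcel235. Strand use in the counting is not given in the sources used here, so reads of overlapping genes on opposite strands cannot be told apart. Promoter and protein sequences were not analysed here. Alternatives were other scalings (DESeq2 size factors, upper quartile, library totals, muscle or intestine marker genes), no filter or 1 CPM in 3 libraries, DESeq2 1.42.0, limma 3.58.1 on log2(TPM + 1), a 2-fold threshold, adjusted p under 0.05, all 12 libraries in 1 fit, a replicate block, and each library left out.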

Additional observations from a re-analysis of the deposited data

Results flagged for a closer look

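*ldp-1* was flagged because all 3 *sams-1* libraries were above all 3 wild-type libraries at D1 and below them at D7. In the fit of all 12 libraries, the genotype difference changed by −1.91 ± 0.27 (log2, SE) between the ages. That fit has scaling factors of its own, so the value is not the distance between the differences fitted at each age. The change was tested as the interaction of genotype and age and did not pass at adjusted p under 0.01 (edgeR, adjusted p = 0.013). Leaving out each library in turn gave −2.11 to −1.4, with adjusted p between 0.000952 and 0.0731 (edgeR). Over all the alternatives the interaction kept its sign, and its adjusted p ran up to 0.259. Intestine markers were higher in *sams-1* at both ages, and germ line markers lower at both. From D1 to D7 in *sams-1*, the muscle sum went from between 15440.0 and 20540.0 CPM to between 4510.0 and 6345. The hypodermis sum went from between 4138 and 8944 CPM to between 591.5 and 1059. Both sums were lower at D7 in wild type too, and the oocyte sum in *sams-1* was higher at D7. The D1 value of *ldp-1* turned to −1.08 with intestine and −0.38 with muscle markers. Its decline in *sams-1* was −0.08 with muscle markers. The part of tissue makeup in the interaction was not tested.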

How the results depend on the processing

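*lipl-3* and *lipl-4* had at most 61 counts in a group of 3 libraries, and they are among the 10 genes counted here at D1. Both passed the filter on low counts at D1 through the *sams-1* libraries alone, so D1 counts that hold them are a description. The 8 differences given by levels alone, none past the test in the main fit, turned sign between settings and are not printed as folds. Some of them passed under an alternative. Their lowest adjusted p with age in wild type was 0.000358 for *ldp-1*, 0.000617 for *plin-1* and 0.0074 for *dgat-2*. With age in *sams-1* it was 0.000255 for *plin-1* and 0.00236 for *lipl-5*. The cause of the changes below was not tested.

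Counts of the 10 genes are given with the share of all genes that passed under the same setting. Those higher in *sams-1* at D1 (3, with 17.4% of all genes) became 7 with all 12 libraries in 1 fit (32.9%) or adjusted p under 0.05 (34.3%), 6 with upper-quartile factors (26.8%), 0 with intestine (1.23%) or muscle scaling (4.45%), and 0 to 4 with a library left out. Those lower at D1 (0, with 16.8%) became 1 with DESeq2 size factors (19.6%), the DESeq2 test (28.4%), all 12 libraries (22.4%), no filter (11.5%) or adjusted p under 0.05 (29.7%), 2 with intestine (45%) or muscle scaling (39.1%), and 0 to 1 with a library left out. At D7, those higher (4, with 35.6%) became 1 with all 12 libraries (22.9%), 0 with intestine (3.87%) or muscle scaling (1369 of 12242 genes), 2 with the 2-fold threshold (33.4%), and 2 to 5 with a library left out, and those lower (2, with 29.4%) became 6 with intestine scaling (59.9%), 4 with muscle scaling (53.1%) and 0 with upper-quartile factors or the 2-fold threshold (16.4% each). With age in wild type, those higher (1, with 2.94%) became 3 with the DESeq2 test (4.66%) or adjusted p under 0.05 (7.27%), 2 with limma on TPM (3.04%), 9 with muscle scaling (53%) and 1 to 3 with a library left out. With age in *sams-1*, those higher (1, with 3.29%) became 2 with DESeq2 (9.67%), limma (10.3%) or adjusted p under 0.05 (10.7%), 6 with muscle scaling (58.2%) and 0 to 2 with a library left out, and those lower (1, with 6.34%) became 2 with DESeq2 (12.3%), limma (8.26%) or adjusted p under 0.05 (17.8%) and 0 with intestine (1.51%) or muscle scaling (1.57%). The interaction count lower (0, with 0.0141%) became 1 with DESeq2 (1.48%), upper-quartile factors (0.0211%) or adjusted p under 0.05 (0.754%), and 0 to 1 with a library left out.

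With intestine scaling, differences at D1 and D7 turned to −0.76 and −1.25 for *acs-22*, −0.51 and −0.63 for *dhs-3*, −0.98 and −1.16 for *hlh-30*, −0.46 and −1.14 for *lipl-1*, −1.23 and −0.62 for *lipl-2*, −0.52 and −1.57 for *lipl-5*, −0.48 and −1.23 for *lipl-7* and −1.69 and −0.26 for *sams-1*, and at 1 age to −0.29 for *dgat-2* (D7), −1.66 for *hosl-1* (D1) and −1.08 for *ldp-1* (D1). With muscle scaling they turned at D1 to −0.08 for *hlh-30* and *lipl-7*, −0.84 for *hosl-1*, −0.38 for *ldp-1*, −0.17 for *lipl-2* and −0.85 for *sams-1*, and at D7 to −0.58 for *acs-22*, −0.47 for *hlh-30*, −0.45 for *lipl-1*, −0.89 for *lipl-5* and −0.55 for *lipl-7*. Also with muscle scaling, the difference with age turned to 1.05 for *dgat-2* and 0.22 for *lipl-4* in *sams-1* and to 0.42 for *lipl-3* in wild type. With upper-quartile factors *hosl-1* turned to 0.13 at D7, *plin-1* to 0.26 and 0.21 and *seip-1* to 0.25 at D7, and with library totals *plin-1* to 0.03 and *seip-1* to 0.08 at D7.

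Ratios of group means moved with library-total CPM from 1.25 to 0.985 for *plin-1* (wild type D7 over *sams-1* D7), from 2.29 to 2.08 for *atgl-1* (wild type D7 over *sams-1* D1), and from 4.12 to 4.79 for *acs-22* and from 20.2 to 24.0 for *lipl-1* (both *sams-1* D7 over wild type D1), and with TPM to 2.66 for *atgl-1*. Shares by expected counts were 1.68% and 1.83% for *lipl-1* in wild type and *sams-1* at D1 and 7.86% and 10.1% at D7, 6.59% for *lipl-2* and 0.377% for *lipl-3* in wild type at D1, 0.915% for *lipl-3* in *sams-1* at D1, and for *lipl-5* 91.3% and 85.5% in wild type at D1 and D7 and 78.6% in *sams-1* at D7.

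Whether the replicate numbers pair the libraries was not settled. Correlations of same-numbered deviations were 0.195, 0.081 and 0.134 at D1, beside −0.279 to 0.208 between libraries of different numbers. At D7 they were −0.004, 0.045 and 0.029, beside −0.098 to 0.073. With the replicate block, 1 of the 10 genes passed as higher at D1, where 11.8% of all genes did, and *lipl-4* (3.96) and *lipl-5* (1.69) had adjusted p of 0.0167 and 0.0111 (edgeR).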
